A study of Arabidopsis thaliana with 4 samples.

Results

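The 26S proteasome subunit genes of Arabidopsis thaliana were followed in plants exposed to (E)-2-hexenal vapour. The set holds 38 of the 30361 gene loci on the array, taken by locus code from a list of subunits of the complex. Of the 38 genes, 12 encode alpha subunits and 11 encode beta subunits of the core particle, 10 encode RPT ATPases and 5 encode RPN subunits of the regulatory particle. The reference gene table gives a subunit name to 33 of them. The other 5 are called by their code: AT1G79210 stands in the list as the partner of PAB1, AT3G26340 as that of PBE1, AT1G45000 as that of RPT4A, AT5G20000 as that of RPT6A, and AT2G32730 as the RPN2A entry.

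All plants were the wild-type accession Col-0, grown on peat pellets at 23 °C with 14 h of light and 10 h of dark. Their age is not given in the sources used here. The treated plants were kept for 30 min at 25 °C with 10 µM hexenal, a reactive leaf aldehyde, given as 3 µL of a 1 M solution in acetonitrile on paper in a closed 340 cm3 box. The control plants received acetonitrile, the solvent. There were 3 hexenal arrays, labelled as biological replicates, and 1 control array, each from the RNA of at least 6 plants.

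The proteasome is the main protease for ubiquitin-tagged proteins in plant cells. Its core particle is a barrel of outer alpha rings, which gate the entry, and inner beta rings, which hold the protease sites. The regulatory particle docks on the barrel: the RPT ATPases unfold the substrate and feed it in, and RPN subunits bind and trim the ubiquitin chain. Many subunits have a pair of gene copies in Arabidopsis, and in this species the factors NAC53 and NAC78 are known to raise the expression of subunit genes when the proteasome is inhibited.

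Median deposited intensities lay between 936 and 982 on the 4 arrays. The 5 leaf markers were at log2 intensities of 15.05 to 15.78 on all arrays. Among 5 root markers PYK10 was bright, while CASP1, EXPA7, COBL9 and RHD6 had mean levels between the 5.07 and 24.2 percentiles of all loci, and no detection limit was available to say whether they were present. The mean of 5 floral markers was 7.14 in hexenal replicate 1 and 6.07 to 6.13 on the other arrays. In the same replicate the mean of the root markers was lowest, at 8.09 against 8.78 in the control. All 5 floral markers (AP1, AP3, PI, AG and SEP3) were highest in that replicate.

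None of the 38 subunit genes was called higher or lower after 30 min of hexenal. Their changes ran from -0.26 for RPN1A to 0.51 for AT5G20000 on the log2 scale, and none reached a 2-fold difference. A call was an adjusted p under 0.05 from limma, adjusted over all loci by the Benjamini-Hochberg method, and at least a 2-fold change. By this rule 0.899% of all loci were called, 0.866% higher and 0.0329% lower. The smallest adjusted p of a subunit gene was 0.637, that of PAB1. At an unadjusted p under 0.05, limma gave 0 of 38 subunit genes, against 8.75% of all loci (5.83% higher and 2.91% lower). In these samples a change in the share of a cell type and a change of RNA per cell cannot be told apart.

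The size of a change that could have been missed was read from each gene's 95% interval, computed with limma's moderated standard error. All 38 intervals held 0. For 28 of 38 genes the interval lay wholly within a 2-fold change in both directions. The upper limit passed a 2-fold rise for 8 genes, since 30 were below it, and the lower limit passed a 2-fold fall for 2 genes, PBC1 and RPN1A. The standard errors ran from 0.23 to 0.45. They come from the spread of the 3 hexenal arrays, which limma draws towards a variance estimated over all loci. AT2G32730 had the smallest standard error, 0.23, with an SD of 0.042 over the hexenal arrays. The single control is assumed to vary like the hexenal arrays.

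The subunit genes had small changes, more of them positive (25) than negative (13). Over all loci 14017 changes were positive and 16344 negative, and over the brighter 50% of loci 7175 and 8005. All 38 subunit genes lay in the brighter 50%. Their median size of change was 0.16, against 0.265 for all loci and 0.266 for the brighter 50%. The median signed change was 0.07, beside -0.03 for all loci and -0.02 for the brighter 50%. All 3 hexenal arrays lay above the control for 18 subunit genes (47.4%) and below it for 2 (PAA1 and RPT2B), with the other 18 overlapping it. Over all loci 26.1% were above and 32.4% below, and over the brighter 50% of loci 28.6% were above and 33.6% below. For 21 of the 38 genes the change was smaller than the SD of the 3 hexenal arrays.

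**Figure D1:**
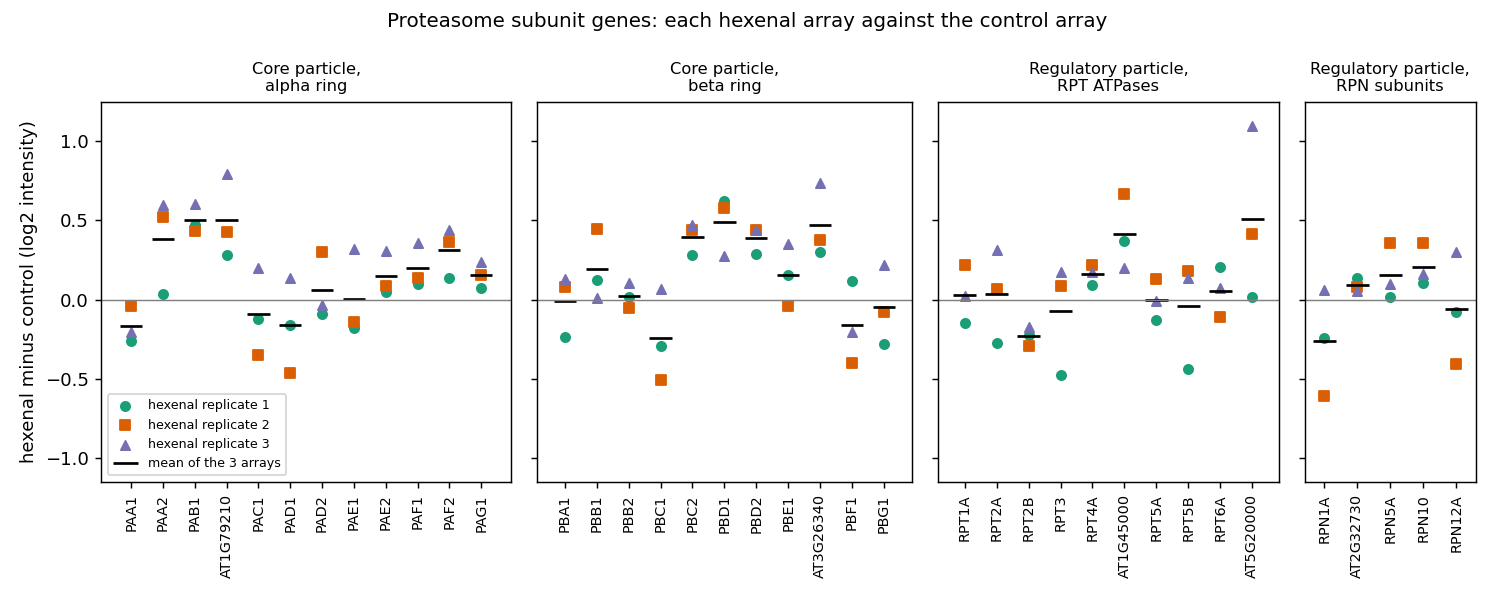
Difference between each hexenal array and the control array in log2 intensity (vertical axis) for the 38 subunit genes, grouped by ring or subunit class. Points are single arrays and bars their mean; 18 genes have points on both sides of 0, and the means stay between -0.26 and 0.51.

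Of the 12 alpha subunit genes, 9 had a positive and 3 a negative mean change (14017 and 16344 over all loci), with a median of 0.15. For 7 of them all hexenal arrays lay above the control, beside 26.1% of all loci, and for PAA1 all lay below, beside 32.4% of all loci. PAB1 was at 11.39 in the control and at 11.86, 11.83 and 12.00 in hexenal replicates 1, 2 and 3 (log2 intensity). All 3 values were above the control, and the change was 0.51 ± 0.24 (SE), or 1.42-fold with an interval of 0.938 to 2.15 (adjusted p = 0.637 by limma). Its partner AT1G79210 was at 12.23 in the control and at 12.51, 12.66 and 13.02 with hexenal, again all above the control. That change was 0.50 ± 0.29 (adjusted p = 0.678 by limma). PAA1 was at 13.20 in the control and at 12.94, 13.16 and 12.99 with hexenal, so that replicate 2 lay close beside the control. PAC1 and PAG1, which have no partner in the list, were at -0.09 and 0.16. PAF1, which the reference also lists as ARSENIC TOLERANCE 5, was at 0.20 ± 0.25.

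The 11 beta subunit genes had 7 positive and 4 negative mean changes (14017 and 16344 over all loci) and a median of 0.15. Every hexenal array was above the control for 5 of these genes, beside 26.1% of all loci, and below it for none, beside 32.4%. The beta median was 0.065 without hexenal replicate 2 and 0.056 without replicate 3. The subunits with protease sites are those of the PBA, PBB and PBE genes, with caspase-like, trypsin-like and chymotrypsin-like activity. PBA1 was at -0.01 ± 0.27, PBB1 at 0.19 ± 0.28, PBB2 at 0.02 ± 0.24, PBE1 at 0.15 ± 0.27 and AT3G26340 at 0.47 ± 0.28. Among these 5 genes AT3G26340 was the one with every hexenal array clearly above the control (10.54 in the control, 10.84, 10.92 and 11.28 with hexenal). PBB1 also lay above it on all arrays, but in replicate 3 by only 0.0089. PBC1, a subunit without a protease site, was the second lowest member. It was at 13.11 in the control and at 12.81, 12.60 and 13.17 with hexenal, so replicate 3 was above the control and replicates 1 and 2 were below. Its change of -0.25 was -0.11 without replicate 2 and -0.40 without replicate 3. PBD1, at 0.49 ± 0.27, was at 11.10 in the control and at 11.73, 11.68 and 11.38 with hexenal.

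The 10 RPT ATPase genes had 6 positive and 4 negative changes (14017 and 16344 over all loci) and a median of 0.03. Set against the control, their median was -0.14 in replicate 1 and 0.15 in each of replicates 2 and 3, and without replicate 1 the median change was 0.14. Here 3 genes lay above the control on every hexenal array (RPT4A, AT1G45000 and AT5G20000), 30.0% beside 26.1% of all loci, and 1 below, beside 32.4% of all loci. RPT2B, the ATPase copy with the lowest change, was at 12.98 in the control and at 12.75, 12.68 and 12.80 with hexenal, a change of -0.23 ± 0.23 (adjusted p = 0.801 by limma). All 3 hexenal values were below the control and closer to each other than to it. The largest change and the largest spread of the whole set belonged to AT5G20000. It was at 10.60 in the control and at 10.62, 11.02 and 11.70 with hexenal, so replicate 1 was level with the control and replicate 3 stood well apart. Its change was 0.51 ± 0.45, with an interval of -0.61 to 1.63, and it was 0.21 without hexenal replicate 3. The locus lies next to RPT6A in the RefSeq gene table of assembly TAIR10.1.

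The 5 RPN genes had a median of 0.09, with 3 genes above the control on every hexenal array, beside 26.1% of all loci, and none below, beside 32.4%. RPN1A, whose product docks ubiquitin-like proteins on the regulatory particle, was at 14.26 in the control and at 14.02, 13.66 and 14.32 with hexenal. The hexenal values lay on both sides of the control, and the change was -0.26 ± 0.33 (adjusted p = 0.843 by limma). It was -0.09 without hexenal replicate 2 and -0.42 without replicate 3. AT2G32730 had the smallest SD of the subunit genes, 0.042, and a change of 0.09. RPN10, a ubiquitin receptor, was at 0.21 ± 0.25, RPN5A, a lid subunit that the reference lists as EMB2107, at 0.16 ± 0.26, and RPN12A, another lid subunit, at -0.06 ± 0.34.

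The changes were also set out by mean level, with no test of the ranges against each other. The 8 subunit genes between the 50 and 75 percentiles of mean level (PAB1, PBB2, PBD1, PBD2, AT3G26340, AT1G45000, RPT5B and AT5G20000) had a median change of 0.44. Set against the control, their medians were 0.29, 0.42 and 0.36 in replicates 1, 2 and 3, and 6 of the 8 lay above the control on all hexenal arrays, against 30.8% of the 7590 loci in that range. The 13 subunit genes between the 75 and 90 percentiles had a median of 0.15, with 6 above the control on all arrays (27.2% of loci in that range). The 17 subunit genes above the 90 percentile had a median of -0.0024, with 6 above on all arrays (25.3% of loci in that range). The median over all loci stayed at -0.01, -0.02 and -0.05 in these ranges. The part of the signal level in the difference between these ranges was not tested.

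The 3 hexenal arrays were not alike in these genes. Replicate 3 held the highest hexenal value for 23 of the 38 genes and replicate 1 the lowest for 23, while among the brighter 50% of loci replicate 3 was highest in 35.6% and replicate 1 lowest in 28.3%. Against the control, the median of the 38 genes was 0.03 in replicate 1, 0.13 in replicate 2 and 0.19 in replicate 3. Without replicate 1, the array in which the floral markers were highest, the median of the 38 genes was 0.15 in place of 0.07. The part of the floral or root tissue in this was not tested.

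The paralogue pairs were compared next, to ask whether both copies of a subunit gene moved alike. There are 13 pairs among the 38 genes. For each pair the change of the second copy was set against that of the first within each array, so that a shift common to an array drops out. The median size of this difference was 0.22, and in 6 of 13 pairs it was under 0.2. It was larger than its SD over the hexenal arrays in 6 of 13 pairs. All values of a pair are set against the same single control. They share its error, which the SD does not hold. An exact permutation test over 4 arrays cannot go below p = 0.25. No other test of the pair differences was run, and they are given as values.

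**Figure D2:**
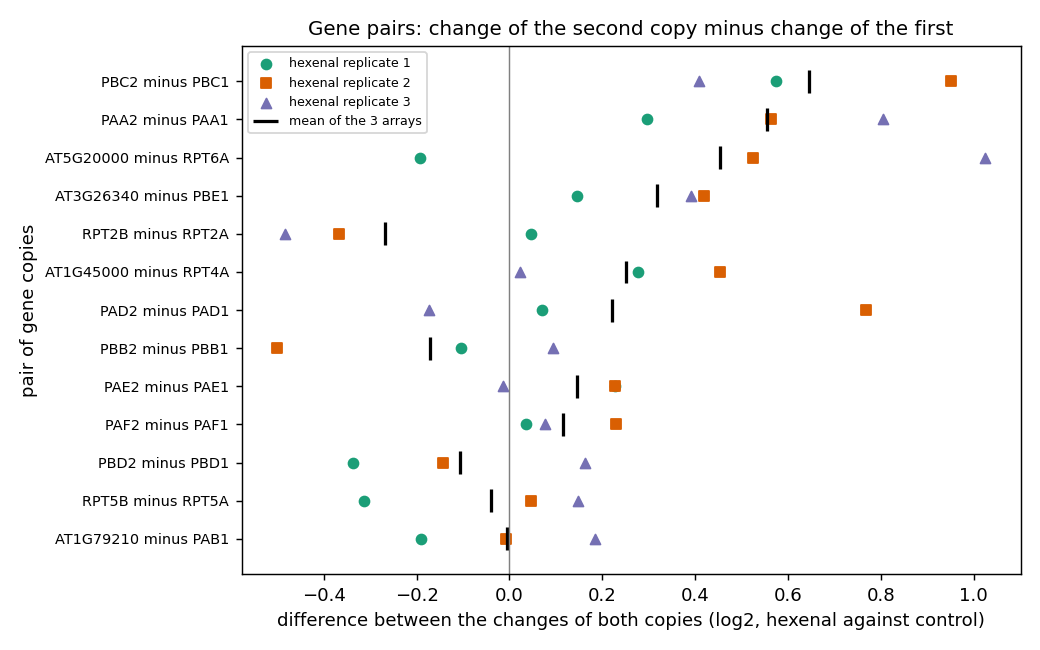
Difference between the log2 changes of both copies of each of 13 gene pairs (horizontal axis), in each hexenal array against the control. Points are arrays and bars their mean; PBC2 against PBC1 and PAA2 against PAA1 stand farthest to the right with all arrays on one side, and the pair of PAB1 centres on 0.

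The widest pair difference was that of PBC2 and PBC1, at 0.64 ± 0.28 (SD, n = 3). PBC2 was at 11.60 in the control and at 11.88, 12.04 and 12.07 with hexenal, all above the control, while PBC1 went below it in replicates 1 and 2. The difference between the copies was 0.57, 0.95 and 0.41 in replicates 1, 2 and 3. PAA2 and PAA1 followed at 0.55 ± 0.25 (SD, n = 3). PAA2 was at 11.58 in the control and at 11.62, 12.10 and 12.18 with hexenal, so replicate 1 was near the control and the others were above it. In this pair the difference was 0.30, 0.56 and 0.80 in replicates 1, 2 and 3. Both pairs had an exact permutation p of 0.25, the smallest that this test allows. The pair of AT3G26340 and PBE1, at 0.32 ± 0.15 (SD, n = 3) with all arrays on one side, also had this p.

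AT5G20000 and RPT6A differed by 0.45 ± 0.61 (SD, n = 3), less than the spread between arrays. RPT6A was at 12.21 in the control and at 12.42, 12.10 and 12.28 with hexenal, on both sides of it. Without hexenal replicate 3 that difference was 0.17. At the other end, both copies of the PAB pair changed by nearly the same amount (difference -0.0044 ± 0.19 SD, n = 3), as did RPT5A and RPT5B (-0.04 ± 0.24 SD, n = 3). In 9 of 13 pairs the copy with the lower mean intensity had the higher change. Levels of different probes do not measure relative amounts of RNA, and near-identical copies may share probe sequence, which was not tested. Of the 26 genes in pairs 20 had a positive change, with a median of 0.16. Of the 12 genes without a partner in the list 5 had a positive change, with a median of -0.03. These are not all single-copy genes. PAC1, RPT1A, RPN1A, AT2G32730, RPN5A and RPN12A have a second copy outside the set, by the lists of other subunits used below. Over all loci 14017 of 30361 changes were positive. The genes without a partner had mean levels between the 85.2 and 98.0 percentiles. The 8 subunit genes between the 50 and 75 percentiles of mean level were all in pairs. The part of the signal level in this contrast was not tested.

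Other genes of the pathway were then read from lists of subunits outside the set, assembly factors and regulators, delivery factors and ubiquitin genes. The lists name 43 loci, of which 1 has no row here and 12 have no matching name in the reference, which left 30. Of these 30 genes 1 was called higher and none lower, beside 0.866% of all loci called higher and 0.0329% lower. At an unadjusted p under 0.05, limma gave 5 of the 30, all higher, against 8.75% of all loci (5.83% higher). All 3 hexenal arrays lay above the control for 20 genes (66.7%) and below it for 2, beside 26.1% and 32.4% of all loci. Over the 42 listed loci with a row 24 lay above (57.1%) and 2 below. The lists were chosen with earlier results of these data known.

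**Figure D3:**
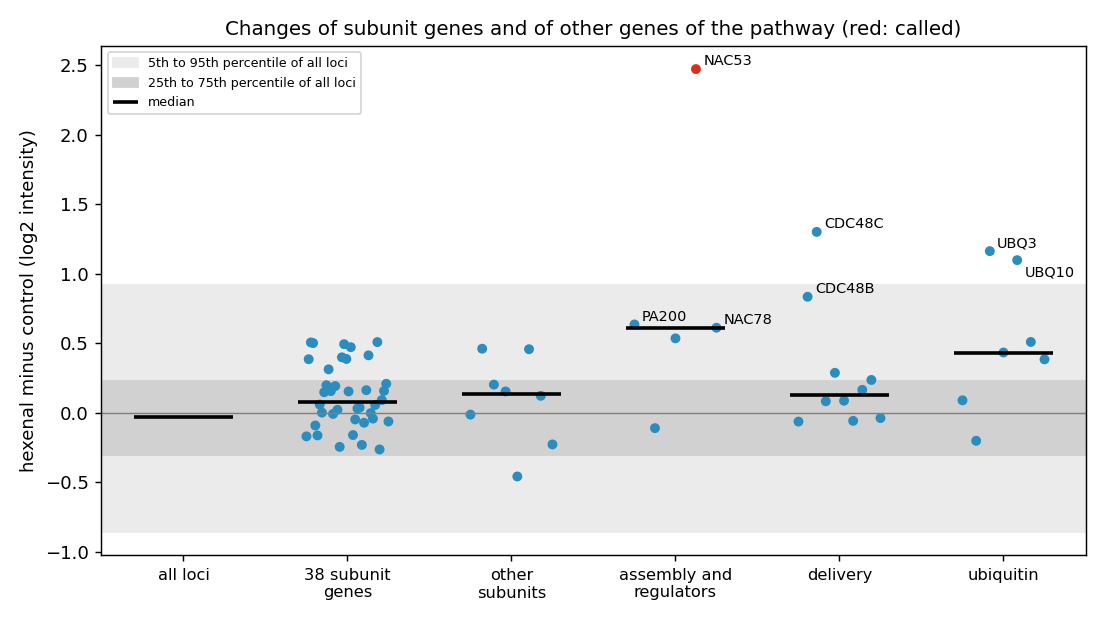
Log2 change with hexenal (vertical axis) of the 38 subunit genes and of the 30 other pathway genes by list, over grey bands for the percentiles of all loci. Points are genes, black bars medians and the red point the called gene, NAC53 at 2.47; the subunit genes lie between -0.26 and 0.51.

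NAC53 rose. This membrane-tethered factor, with NAC78 a regulator of proteasome genes in Arabidopsis, was at 10.52 in the control and at 12.90, 12.81 and 13.25 with hexenal. All hexenal values stood more than 2 log2 units above the control, and the change was 2.47 ± 0.28 (SE), or 5.55-fold (adjusted p = 0.0329 by limma). Its adjusted p was 0.186 without hexenal replicate 2, a setting under which no locus of the array was called, while the change was 2.56. NAC78 was at 12.98 in the control and at 13.46, 13.68 and 13.64 with hexenal. All 3 values were above the control, and the change of 0.61 ± 0.24 was not called (adjusted p = 0.571). The other members of that list were not called either. PA200, an alternative activator that caps the core particle, was at 11.61 in the control and at 12.19, 12.07 and 12.49 with hexenal, all above the control (0.63 ± 0.28). UBP7, a proteasome-bound deubiquitinase, was at 0.54 ± 0.26, and its relative UBP6 at -0.11 ± 0.29.

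**Figure D4:**
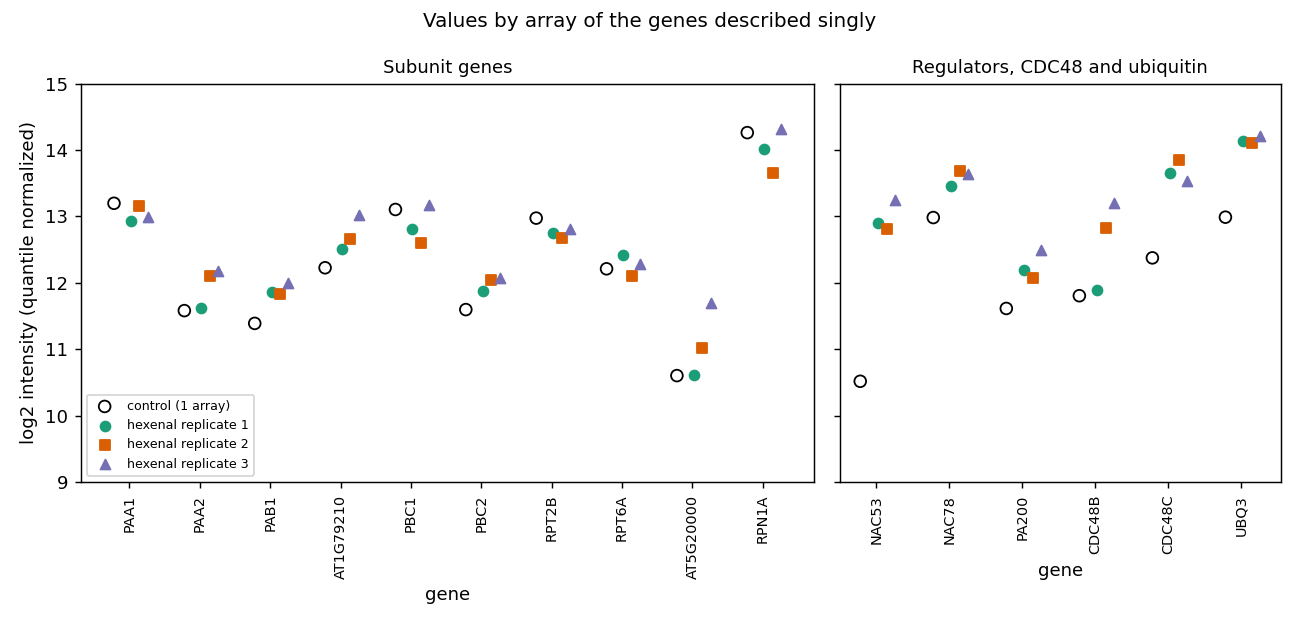
Log2 intensity on each array (vertical axis) for 10 subunit genes and for 6 other pathway genes (horizontal axis). Other genes with array values in the text, among them RPN5B, RPN12B, UBQ10, PBD1 and AT3G26340, are not shown. Open circles are the control and filled symbols the hexenal replicates; NAC53 goes from 10.52 to between 12.81 and 13.25, and AT5G20000 from 10.60 to between 10.62 and 11.70.

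The 8 other subunit genes had a median of 0.14, and none was called. RPN5B, the second copy of RPN5A, was at 11.68 in the control and at 12.02, 12.03 and 12.39 with hexenal, all above the control (0.46 ± 0.27). RPN12B, the second copy of RPN12A, was at -0.46 ± 0.50. It was dim and scattered (8.33 in the control and 7.64, 7.38 and 8.59 with hexenal). RPN13, a ubiquitin receptor, was at 0.46 ± 0.26 and RPN6, a lid subunit, at 0.20 ± 0.23. With the 9 listed subunit loci that the reference does not name, no call was added, and the median of the 17 was 0.02. Of the 17 changes 10 were positive and 7 negative. The highest was that of AT3G11270, listed as RPN8B, at 0.64 ± 0.25 with an interval of 0.010 to 1.27. All 3 hexenal arrays lay above the control, but the gene was not called (adjusted p = 0.560 by limma). At an unadjusted p under 0.05, limma gave 1 of the 17, this gene, against 8.75% of all loci.

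Among 10 delivery genes, which bring ubiquitin-tagged proteins to the proteasome, none was called and the median was 0.13. CDC48 ATPases pull such proteins out of complexes and membranes. CDC48C was at 12.38 in the control and at 13.65, 13.85 and 13.53 with hexenal, all more than 1 log2 unit higher. Its change of 1.30 ± 0.26 (2.46-fold) missed the threshold (adjusted p = 0.151 by limma). It passed when the dimmest 50% of loci were left out (0.0472) and with a trend and robust variance (0.00972). Those settings called 480 and 628 of all loci, against 273 in the fit reported. CDC48B was at 11.81 in the control and at 11.89, 12.83 and 13.20 with hexenal, with replicate 1 level with the control and the others above it (0.83 ± 0.53). CDC48A was at -0.06 ± 0.28. DSK2A, DSK2B and DDI1, which are shuttle receptors, were at 0.16, 0.24 and -0.04.

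Of 7 ubiquitin and ubiquitin-activating genes none was called, and the median was 0.43. The polyubiquitin gene UBQ3 was at 12.99 in the control and at 14.13, 14.11 and 14.21 with hexenal, all more than 1 log2 unit higher. Its change was 1.16 ± 0.23 (adjusted p = 0.158 by limma, and 0.00971 with a trend and robust variance). The latter setting called 628 of all loci, against 273 in the fit reported. UBQ10 was at 7.05 in the control and at 8.35, 7.85 and 8.23 with hexenal, all above the control (1.10 ± 0.29). It was dim, with a mean level at the 28.3 percentile of all loci. UBQ4, UBQ11 and UBQ14 were at 0.43, 0.51 and 0.38. Polyubiquitin genes repeat a near-identical unit and may share probes, so their single values are uncertain. UBA1 and UBA2, the ubiquitin-activating enzymes, were at 0.09 and -0.20.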

How the data were processed

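Each RNA sample was hybridised to a one-colour Cy3 NimbleGen array, per the labels' protocols. The deposited values are linear intensities, with a single value for each of 30361 loci on each array. How the authors corrected background, summarised probes and normalized is not stated in any source at hand. There is no sequencing depth, and precision is limited by the number of arrays. Intensities were taken to log2 and quantile normalized, because lower quartiles differed by 0.201 between arrays (tolerance 0.1). Hexenal was tested against control with limma 3.58.1 (lmFit, eBayes; R 4.3.3) over all loci, with 2 residual and 3.43 prior degrees of freedom and two-sided p values. The fit was also run on simulated data, drawn with the same spread for the control and the hexenal arrays. That run therefore cannot test whether the single control varies like the hexenal arrays. Names come from RefSeq (TAIR10.1), which matched 29976 loci, and coordinates are left out since the files' build is unknown. Sequences and promoter motifs were not analysed here.

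Members and lists were chosen with earlier results of these data known. All 38 subunit genes may be named. Values on every array are given for the 3 highest, the 3 lowest and the pairs with the 3 largest differences, for PBD1 and AT3G26340, which were chosen after their values were seen, and in other lists for called genes, the 2 largest changes, NAC53 and NAC78. Other list members were named after their values were seen. Alternatives covered normalization, dim loci, variance model, pseudocount and each replicate.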

Additional observations from a re-analysis of the deposited data

How the results depend on the processing

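No paired analysis was possible because the control has 1 array and shares no more than 1 number with the hexenal arrays. No subunit gene was called under any of 10 alternative fits (smallest unadjusted p 0.0567), nor at an adjusted or unadjusted p under 0.05 without a fold threshold in the fit reported. The count of subunit genes below the control on all hexenal arrays, 2, was 3 to 9 when a replicate was left out, when fewer arrays have to lie there. The count above it, 18, was 17 under median centring and 18 to 23 with a replicate left out. The beta median of 0.15 was 0.056 to 0.15 with a replicate left out. The median size of the pair difference, 0.22, was 0.11 without replicate 2. The RPT median, 0.03, was -0.02 to 0.14 with a replicate left out (-0.02 without replicate 2, 0.14 without replicate 1). The count of other pathway genes called, 1, was 0 to 1 with a replicate left out (0 without hexenal replicate 2), 2 without the dimmest 50% of loci, where fewer loci are tested, and 3 with a trend and robust variance. All listed loci, added after seeing the data, gave 1. Over all loci the counts were 273, 0 without replicate 2, 480 without the dimmest 50% and 628 with a trend and robust variance; the cause was not tested.

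Of 468 values of 47 genes under the alternatives, 20 changed sign, all of genes within 0.092 of 0. With a replicate left out, they were PAC1 at -0.24 to 0.038, PAD2 at -0.063 to 0.13, PAE1 at -0.16 to 0.091, PBA1 at -0.077 to 0.10, PBB2 at -0.019 to 0.059, PBG1 at -0.18 to 0.068, RPT1A at -0.063 to 0.12, RPT2A at -0.10 to 0.19, RPT3 at -0.20 to 0.13, RPT5A at -0.069 to 0.060, RPT5B at -0.15 to 0.16, RPT6A at -0.020 to 0.14 and RPN12A at -0.24 to 0.11. As deposited, PBA1 was at 0.016 and RPT5A at 0.021. Median centring gave PAE1 -0.0093, and cyclic loess gave PBA1 0.021, PBG1 0.011 and RPT5A 0.046.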
